A study of Mus musculus with 27 samples.

Results

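The 7 genes Dazl, Boll, Rbm46, Rbmxl2, Adad1, Adad2 and Nanos2 encode RNA-binding regulators of germ cells that lie outside the piRNA pathway. They were taken by name from a table of 24065 genes, in which all 7 have a row. Their transcripts were counted by RNA-Seq in total RNA of intact mouse embryos collected at E8.5, of which 3 were WT and 3 were Dnmt3b-/-, each in a library of its own. The embryos were C57BL/6J littermates from matings of heterozygous mice. The Dnmt3b-/- embryos carried on both copies an allele without the catalytic exons, made from the Dnmt3b-2lox allele with the ubiquitous ACTB-Cre deleter and shared by all tissues of the embryo. The series holds 21 further libraries of DNA methylation (RRBS), which were not analysed here.

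Proteins of this kind hold germ cell mRNAs under control after transcription. DAZL binds germ cell mRNAs together with poly(A)-binding proteins and promotes their translation, and germ cells of both sexes need it. BOLL is its relative of late male germ cells. RBM46 is needed for meiosis, RBMXL2 (hnRNP G-T) controls splicing in meiotic male germ cells, and ADAD1 and ADAD2 are testis proteins with an adenosine deaminase domain that male fertility needs. NANOS2 acts in fetal male germ cells, where it brings the CCR4-NOT deadenylase to mRNAs and holds back meiosis. In the E8.5 embryo the only germ cells are a few primordial germ cells among a great majority of somatic cells.

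DNMT3B is one of the enzymes that place DNA methylation on CpG sites, so the bases before the gene starts are shown for 3 genes. Of these only Dazl had enough counts to be tested. Rbm46 and Adad2, which were tested and not called, are described below by their CpG sites. A link between CpG content and response was not tested. The sequences are RefSeq sequences of GRCm38 (mm10) of the 250 bases before the start, 5′ to 3′ on the strand of the gene, with CpG sites in capitals. Dazl was higher in Dnmt3b-/- embryos, Rbmxl2 had as dense a sequence but too few counts to be tested, and Nanos2 had no CpG site in this window and no more than 2 counts in any embryo. The windows are chr17:50293621-50293870 on the minus strand for Dazl, chr7:107209195-107209444 on the plus strand for Rbmxl2 and chr7:18987274-18987523 on the plus strand for Nanos2.
Dazl: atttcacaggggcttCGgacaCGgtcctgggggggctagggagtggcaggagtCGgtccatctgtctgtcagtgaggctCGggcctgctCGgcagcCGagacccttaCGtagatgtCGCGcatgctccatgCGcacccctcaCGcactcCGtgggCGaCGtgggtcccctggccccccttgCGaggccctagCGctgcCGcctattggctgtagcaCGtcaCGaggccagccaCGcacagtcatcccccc
Rbmxl2: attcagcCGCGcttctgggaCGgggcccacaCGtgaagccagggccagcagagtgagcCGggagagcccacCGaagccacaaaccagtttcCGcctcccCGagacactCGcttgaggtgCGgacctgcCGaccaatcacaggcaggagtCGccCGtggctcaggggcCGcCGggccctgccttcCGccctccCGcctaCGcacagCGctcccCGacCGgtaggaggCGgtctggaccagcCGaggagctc
Nanos2: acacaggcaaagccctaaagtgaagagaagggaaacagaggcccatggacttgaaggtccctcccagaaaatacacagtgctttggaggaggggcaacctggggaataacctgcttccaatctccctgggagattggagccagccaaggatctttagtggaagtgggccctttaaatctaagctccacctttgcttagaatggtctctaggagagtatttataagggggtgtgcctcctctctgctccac

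RefSeq windows were at hand for 6 of the 7 genes (all but Adad1). The window of Dazl held 20 CpG sites at a GC content of 67.2%, more CpG sites than 82.1% of the 32851 windows of all genes, whose median was 6. Rbmxl2 held 23 CpG sites, Rbm46 18 and Adad2 12. Boll has 2 annotated starts, with 11 and 33 CpG sites. Thus 5 of the 6 genes lay above the median window, and Nanos2 held 0. As a description, 3 motifs were searched on both strands of these windows. The E-box CACGTG occurred before the first start of Boll and before Rbm46 and Rbmxl2, and in 6.02% of all windows. The E2F motif GCGGGA occurred before Rbm46 and Rbmxl2, where it did not overlap the E-box, and in 16.9% of all windows. The cyclic AMP response element TGACGTCA, found in 1.55% of all windows, was in none of them. Dazl and Adad2, of which Dazl was called and Adad2 was not, held none of the 3 motifs.

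**Figure D1:**
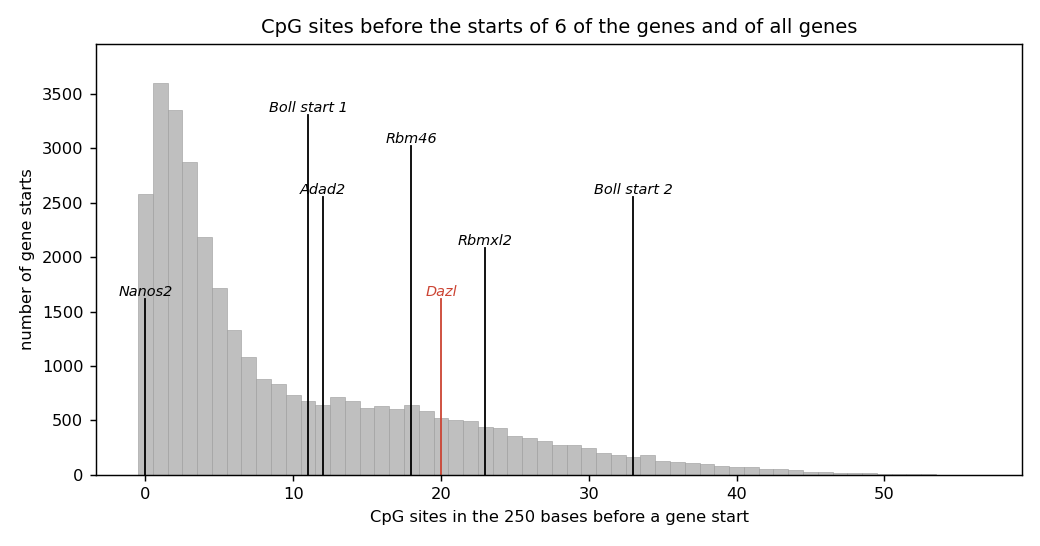
Number of CpG sites in the 250 bases before a gene start (x axis) against the number of starts with that number (y axis, grey bars, 32851 starts), with lines at the starts of 6 of the genes. Dazl (red) stands at 20 CpG sites, the second start of Boll is highest at 33 and Nanos2 is at 0.

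The raw counts on genes summed to between 41489332 and 58470286 per embryo. Counts were scaled to a common library size by the TMM method (normalized counts), and the quasi-likelihood test of edgeR was run on the 15114 genes whose counts averaged 10 or more over the 6 embryos. A gene was called at an adjusted p below 0.05 over all these genes and a fold change above 2. By this rule 320 genes (2.12%) were called higher and 571 (3.78%) were called lower in Dnmt3b-/- embryos, against 246 and 710 with scaling to total counts and 312 and 141 after removal of trends with GC content and length. Over all tested genes the log2 fold change had a median of -0.03. Dnmt3b itself, counted over deleted and kept exons alike, averaged 9197 ± 4191 normalized counts in WT and 4463 ± 349 in Dnmt3b-/- embryos (SD, n = 3 each). It was called lower at a log2 fold change of -1.04, with a standard error of 0.27 and an adjusted p of 0.0169 by edgeR, and with every Dnmt3b-/- embryo below every WT embryo. Its adjusted p was 0.0608, 0.0613 and 0.0555 without Dnmt3b-/- embryos 1, 2 and 3, and 0.0620 after removal of the GC and length trends. Without WT embryo 2, which had the highest count, the log2 fold change was -0.61, below the fold threshold (adjusted p = 0.0026 by edgeR). Markers of yolk sac endoderm differed widely between embryos, with summed normalized counts from 20544 to 179537 in the WT embryos (highest in WT embryo 2) and from 11319 to 41119 in the Dnmt3b-/- embryos.

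Of the 7 genes, 4 had enough counts to be tested, and 2 of these, Dazl and Adad1, were called higher, beside the 2.12% of all tested genes. None was called lower, beside 3.78%. For Dazl and Adad1 every Dnmt3b-/- embryo lay above every WT embryo, as it did for 25.3% of all tested genes. Rbm46 and Adad2 overlapped between the genotypes. Boll, Rbmxl2 and Nanos2 stayed below the filter.

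**Figure D2:**
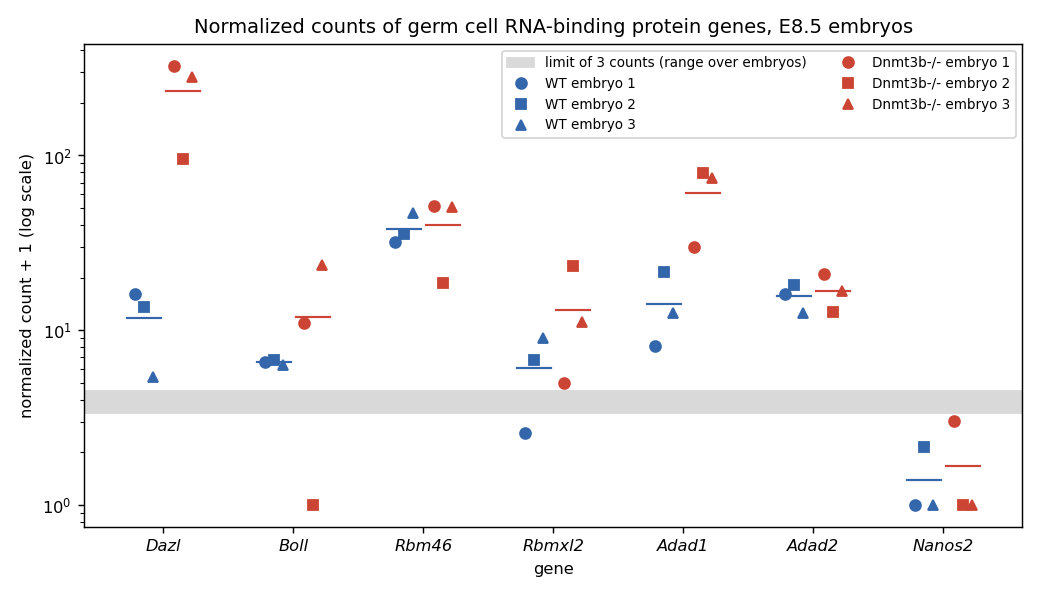
Normalized count plus 1 (y axis, log scale) of each of the 7 genes in each of the 3 WT (blue) and 3 Dnmt3b-/- (red) embryos, with the group mean of the normalized count as a line and the limit of 3 counts as a grey band at 2.38 to 3.501 normalized counts, drawn with the same 1 added. The Dnmt3b-/- embryos stand apart from the WT embryos for Dazl and Adad1 and not for the other 5 genes.

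Dazl (chr17:50279393-50293620, minus strand, 12 exon blocks) had raw counts of 19, 11 and 5 in WT embryos 1, 2 and 3. In Dnmt3b-/- embryos 1, 2 and 3 it had 324, 81 and 249. After normalization the WT embryos were at 15.1, 12.6 and 4.42 and the Dnmt3b-/- embryos at 325, 94.5 and 282. The lowest Dnmt3b-/- embryo thus lay well above the highest WT embryo, and all 3 Dnmt3b-/- embryos showed the increase. The mean rose from 10.7 ± 5.57 (SD, n = 3) in WT to 234 ± 122 (SD, n = 3) in Dnmt3b-/- embryos. This is a log2 fold change of 4.44 (standard error 0.60, 95% interval 3.07 to 5.80), or 21.6-fold, with an adjusted p of 0.00134 by edgeR. Its fitted increase ranked 32 among the 15114 tested genes, although Dazl was a low transcript, with 22.8% of the tested genes below its mean count. In fits on 5 of the 6 embryos the log2 fold change was 4.06 to 4.81, with an adjusted p of 0.00666 at most by edgeR. With the groups fully apart, an exact permutation test of 3 against 3 embryos must give its smallest p (two-sided, p = 0.1). It adds nothing to that separation. In whole embryos, a low level can come from few cells or from little RNA in each cell, and these cannot be told apart.

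The Dnmt3b-/- embryos were uneven in their Dazl transcript. Embryo 2 held 13.5% of the summed normalized count of the 3 embryos, against 46.3% in embryo 1 and 40.2% in embryo 3. The highest Dnmt3b-/- embryo had 3.43 times the count of the lowest, and among the WT embryos this ratio was 3.40.

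Adad1 (chr3:37063656-37111512, plus strand, 12 exon blocks) had 9, 18 and 13 raw counts in WT embryos 1, 2 and 3, against 29, 67 and 65 in Dnmt3b-/- embryos 1, 2 and 3. Normalized, this was 7.13, 20.7 and 11.505 in WT and 29.1, 78.2 and 73.7 in Dnmt3b-/- embryos. The groups did not overlap, but Dnmt3b-/- embryo 1 was near the highest WT embryo. The mean rose from 13.1 ± 6.91 to 60.3 ± 27.2 (SD, n = 3 each). The log2 fold change was 2.22 (standard error 0.57, 95% interval 0.91 to 3.53), or 4.65-fold, with an adjusted p of 0.0176 by edgeR. The call of Adad1 rested on single embryos, since the adjusted p was 0.0696 without WT embryo 1, 0.0590 without WT embryo 3 and 0.0631 without Dnmt3b-/- embryo 2, which leaves Dazl as the only one of the 7 genes called in these 3 fits. The log2 fold change stayed between 1.91 and 2.68 with each embryo left out. By the exact permutation test its p was 0.1, again fixed by the separation of the groups.

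Dazl and Adad1 did not peak in the same Dnmt3b-/- embryo. Embryo 1 had the highest Dazl count and the lowest Adad1 count, 16.1% of the Adad1 total, while embryo 2 had the lowest Dazl count and the highest Adad1 count, 43.2% of the total. Embryo 3 was high for both.

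Rbm46 (chr3:82836521-82876512, minus strand, 9 exon blocks) was measured at 30.9, 34.4 and 46.0 normalized counts in the WT embryos. In the Dnmt3b-/- embryos it was at 50.1, 17.5 and 49.9. Both the highest and the lowest value came from Dnmt3b-/- embryos, with embryo 2 holding 14.9% of their total. The log2 fold change was 0.08 (standard error 0.48, 95% interval -1.02 to 1.18, adjusted p = 0.914 by edgeR), and its sign changed between settings, so that no direction can be given. The interval reaches 2-fold on both sides.

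Adad2 (chr8:119612710-119616926, plus strand, 10 exon blocks), the relative of Adad1, was at 15.1, 17.2 and 11.505 normalized counts in WT and at 20.04, 11.7 and 15.9 in Dnmt3b-/- embryos. The groups overlapped almost entirely. Its log2 fold change was 0.13 (standard error 0.49, adjusted p = 0.861 by edgeR), a ratio of 1.09 with a 95% interval of 0.498 to 2.40. After removal of the GC and length trends the log2 fold change was 0.78, again without a call. The 2 Adad genes started from like WT counts, and Adad1 passed the test where Adad2 did not, but the difference between their fold changes was not tested and their intervals overlap.

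**Figure D3:**
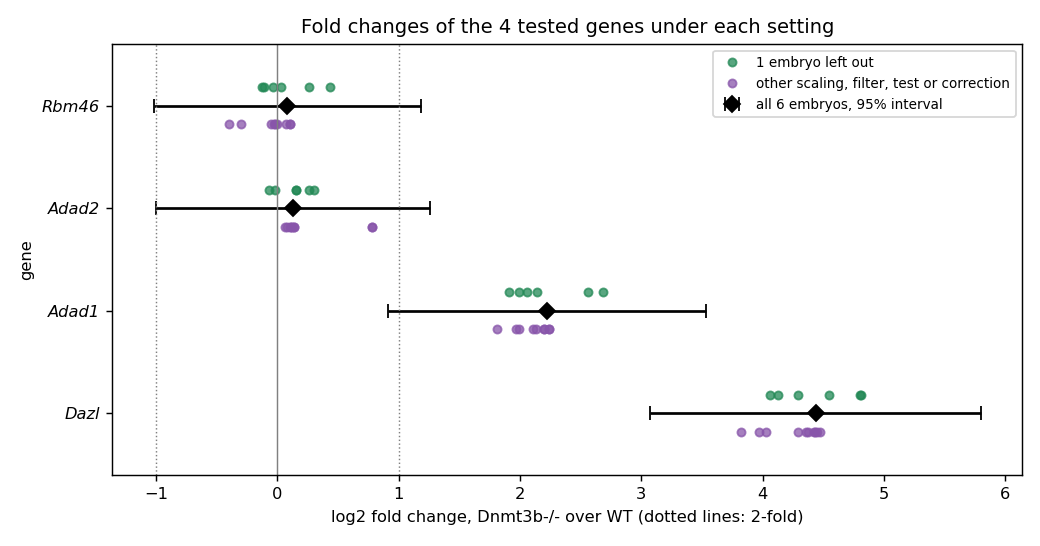
Log2 fold change, Dnmt3b-/- over WT, on the x axis for the 4 tested genes (y axis), with the fit on all 6 embryos as a black diamond with its 95% interval, the fits with 1 embryo left out in green and the other scalings, filters, tests and corrections in purple. All points of Dazl lie above 3 and all points of Adad1 above 1, while those of Rbm46 and Adad2 lie between -1 and 1, on both sides of 0.

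Boll (chr1:55243566-55363789, minus strand, 13 exon blocks), the DAZ family relative of Dazl, had 7, 5 and 6 raw counts in the WT embryos. The Dnmt3b-/- embryos had 10, 0 and 20, of which the count of 0 in embryo 2 allows up to 3.501 normalized counts, a limit that covers counting error only. The WT embryos were close together and the Dnmt3b-/- embryos lay on both sides of them. A fit without the filter gave a log2 fold change of 0.95 (standard error 1.13, 95% interval -1.54 to 3.45, adjusted p = 0.564 by edgeR).

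Rbmxl2 (chr7:107209445-107210916, plus strand, a single exon) had 2, 5 and 9 raw counts in WT and 4, 19 and 9 in Dnmt3b-/- embryos. The high value was that of embryo 2, which held 60.9% of the normalized total of the Dnmt3b-/- embryos and was the lowest of them for Dazl, Boll and Rbm46. Without the filter the log2 fold change was 1.23 (standard error 0.97, 95% interval -0.91 to 3.36, adjusted p = 0.397 by edgeR). Rbmxl2 is an intronless relative of Rbmx, and 0.715% of its windows of 75 bases, the read length, occur at a second place in the genome, which leaves its low counts less certain. For the other 6 genes no such window was found elsewhere.

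Nanos2 (chr7:18987524-18988962, plus strand, a single exon) was at or near 0, with 0, 1 and 0 raw counts in WT and 2, 0 and 0 in Dnmt3b-/- embryos. No embryo of either genotype passed the limit of 3 counts, and no fold change is given. Its transcript was not detectable at this depth in either genotype.

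Per exon length, all 7 transcripts were low. FPKM was computed from the same normalized counts and the RefSeq exon length. In the WT embryos the order of the mean FPKM was Rbm46 at 0.187 ± 0.0398, Adad2 at 0.151 ± 0.0299, Adad1 at 0.138 ± 0.0727, Rbmxl2 at 0.0719 ± 0.0457, Dazl at 0.0671 ± 0.0349, Boll at 0.0126 ± 0.000491 and Nanos2 at 0.00552 ± 0.00956 (SD, n = 3 each). Neighbours in this order overlapped between embryos except Dazl and Boll. In the Dnmt3b-/- embryos Dazl moved to the top at 1.47 ± 0.768 FPKM, followed by Adad1 at 0.635 ± 0.286, Rbm46 at 0.197 ± 0.0945, Rbmxl2 at 0.171 ± 0.130, Adad2 at 0.164 ± 0.0434, Boll at 0.0247 ± 0.0258 and Nanos2 at 0.00964 ± 0.0167 (SD, n = 3 each). Here Adad1 did not overlap Rbm46, nor Adad2 Boll, and the other neighbours overlapped.

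Related genes of the same families (11, of which 10 were tested) ranged widely in level. In WT embryos Rbmx, Rbmxl1, Syncrip and Hnrnpr lay far above the 7 genes. A1cf (0.229 FPKM), Adarb2 (0.251) and Nanos3 (0.168) were near the level of Rbm46 (0.187). The median log2 fold change of the tested relatives was -0.04, beside -0.03 for all tested genes. Of these 10, 1 was called higher and 0 lower, beside 2.12% and 3.78% of all tested genes. The called gene was Hnrnpr, an hnRNP related to Rbm46, which rose from 31.9 to 75.9 FPKM (log2 fold change 1.25, standard error 0.14, adjusted p = 0.000801 by edgeR). After removal of the GC and length trends its log2 fold change was 0.92, below the fold threshold. The most abundant relatives were Rbmxl1, an expressed copy of Rbmx, at 128 FPKM in WT and 133 in Dnmt3b-/- embryos (log2 fold change 0.06, adjusted p = 0.618), and Syncrip, an hnRNP that binds mRNA in the cytoplasm, at 62.9 and 82.9 FPKM (log2 fold change 0.40, adjusted p = 0.00877 by edgeR).

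**Figure D4:**
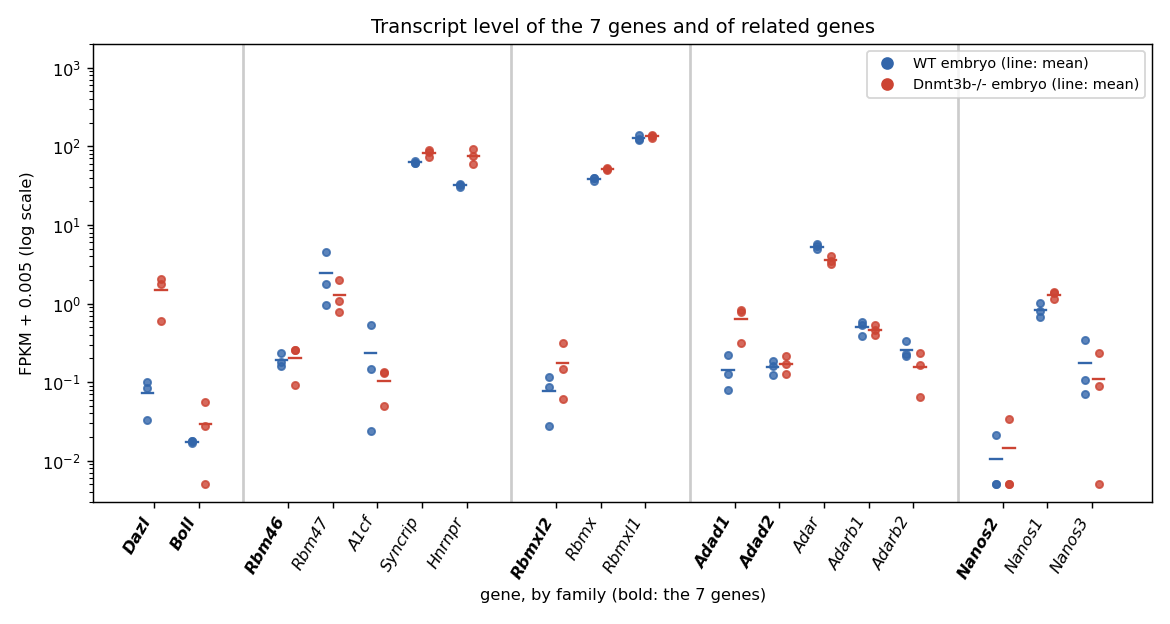
FPKM (y axis, log scale, with 0.005 added) in each WT (blue) and Dnmt3b-/- (red) embryo for the 7 genes (bold) and their relatives, grouped by family on the x axis, with the group means as lines. All Dnmt3b-/- embryos lie above all WT embryos for Dazl and Adad1, and also for 4 of the 10 tested relatives, beside 25.3% of all tested genes. For 1 relative they lie below. Syncrip, Hnrnpr, Rbmx and Rbmxl1 lie above all 7 genes in every embryo.

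Genes that work with DAZL or NANOS2 were expressed in the embryos of both genotypes. This list holds the DAZL-binding proteins, PUM2, the poly(A)-binding protein PABPC1 and the CCR4-NOT complex, 16 genes that were all tested. None was called, beside 2.12% and 3.78% of all tested genes, but at an adjusted p below 0.05 alone 8 were higher and 0 lower, beside 17.6% and 18.1% of all tested genes, and the median log2 fold change was 0.31. Pabpc1, the most abundant, rose from 275 to 425 FPKM (log2 fold change 0.63, standard error 0.08, adjusted p = 0.00130 by edgeR). Cnot1, the scaffold of the CCR4-NOT complex, was at 63.9 FPKM in WT and 65.3 in Dnmt3b-/- embryos (log2 fold change 0.03, adjusted p = 0.763).

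Among 13 tested genes of other germ cell RNA regulators, 4 were called higher and 0 lower, beside 2.12% and 3.78% of all tested genes. The median log2 fold change was 0.78. By the adjusted p alone 6 were higher and 1 lower, beside 17.6% and 18.1% of all tested genes. The lower gene was Msi1, at a log2 fold change of -0.69 (adjusted p = 0.0188 by edgeR). The lowest log2 fold change of the list was that of Cpeb1, at -1.42 (adjusted p = 0.0738 by edgeR). Of the 4 genes called higher, Pabpc6 passed the count filter only through the Dnmt3b-/- embryos. Ddx4, the germ granule helicase also known as Vasa, was at 42.8, 161 and 104 normalized counts in WT and at 907, 857 and 1005 in Dnmt3b-/- embryos. Its Dnmt3b-/- embryos lay close together and its WT embryos did not, and its log2 fold change was 3.19 (standard error 0.40, adjusted p = 0.00104 by edgeR). Papolb, a testis poly(A) polymerase, rose by a log2 fold change of 2.18 (adjusted p = 0.00514), and Rbm44, a protein of germ cell bridges, by 1.38 (adjusted p = 0.00384). Pabpc6, a poly(A)-binding protein gene, had 2, 1 and 0 raw counts in the WT embryos and 45.1, 35.01 and 27.2 normalized counts in the Dnmt3b-/- embryos, a ratio of pooled counts of 39.3 with an exact counting interval of 13.1 to 194 (adjusted p = 0.00188). The most abundant genes of this list were Lin28a, a regulator of let-7 miRNAs, at 205 FPKM in WT and 185 in Dnmt3b-/- embryos (log2 fold change -0.15, adjusted p = 0.479), and the testis helicase gene Ddx25, at 9.36 and 9.66 FPKM (log2 fold change 0.05, adjusted p = 0.812).

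All of 8 mRNAs that DAZL or NANOS2 are known to bind in germ cells were tested. Of these, 5 were called higher and 0 lower, again beside 2.12% and 3.78%, with a median log2 fold change of 2.47. Sohlh2, Taf7l and Stra8, 3 of the called genes, had 3 counts or fewer in each WT embryo. They passed the count filter only through the Dnmt3b-/- embryos, so the shares are not a like comparison. The list was also chosen with earlier results of these data known. The median was the same with these 3 genes set to the limit of 3 counts in each WT embryo. They had the 3 highest fold changes of the list, so the median rested on other genes and this is no check of it. Of the 8 genes, Tpx2 and Sdad1 also serve somatic cells. Sycp3 was not called, at 8.72, 33.3 and 5.31 normalized counts in WT and 29.1, 64.2 and 26.1 in Dnmt3b-/- embryos. The log2 fold change of Sycp3 was 1.36 (standard error 0.73, adjusted p = 0.181 by edgeR), and the groups overlapped. Sohlh2, a germ cell transcription factor gene, had 1 raw count in the WT embryos together and was at 223, 99.2 and 173 normalized counts in the Dnmt3b-/- embryos, a ratio of 550 with an exact counting interval of 98.1 to 21754 (adjusted p = 0.000414 by edgeR). Taf7l, a TFIID subunit of germ cells, had 5 raw counts in the WT embryos together and was at 306, 196 and 281 normalized counts in the Dnmt3b-/- embryos, a ratio of 172 (interval 73.3 to 531, adjusted p = 0.000246). Like Dazl, both were lowest in Dnmt3b-/- embryo 2. Stra8, the gatekeeper of meiosis, went the other way, with 60.1, 106 and 47.6 normalized counts in Dnmt3b-/- embryos 1, 2 and 3 and a ratio of 46.02 (interval 19.4 to 143, adjusted p = 0.000823). Ddx4 belongs to this list too. Tex19.1, a gene of germ cells and placenta, rose by 1.75 on the log2 scale (standard error 0.48, adjusted p = 0.0220). Its adjusted p was 0.0773, 0.0646 and 0.0618 without WT embryo 1, Dnmt3b-/- embryo 1 and Dnmt3b-/- embryo 2. The most abundant were Tpx2, a spindle protein gene of dividing cells, at 88.8 and 133 FPKM (log2 fold change 0.58, adjusted p = 0.00217), and Sdad1 at 37.7 FPKM in both genotypes (log2 fold change -0.00, adjusted p = 0.994).

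Primordial germ cell markers (11 genes, 9 tested) overlapped between the genotypes as a list. Their summed normalized count was 5371 to 6610 in the WT and 5189 to 6388 in the Dnmt3b-/- embryos, with overlap, and none was at 0 in all embryos. At a median log2 fold change of 0.03, 0 were called higher or lower, beside 2.12% and 3.78% of all tested genes. Several of them, such as Kit and Alpl, are also expressed in somatic tissue at this stage. Ifitm3 was at 11.1 FPKM in WT and 21.6 in Dnmt3b-/- embryos (log2 fold change 0.96, adjusted p = 0.00284), and Alpl at 13.5 and 11.46 FPKM (log2 fold change -0.24, adjusted p = 0.0927). Dppa3 and Pou5f1 are given because of their values. Dppa3, a marker nearly private to these cells at this stage, was at 7.13, 23.0 and 16.8 normalized counts in WT and at 34.1, 21.01 and 172 in Dnmt3b-/- embryos. Its log2 fold change was 2.29 (standard error 0.84, adjusted p = 0.0637 by edgeR), and the value of Dnmt3b-/- embryo 3 stood far above the rest. The authors name Dppa3 among pluripotency genes where reduced promoter methylation in Dnmt3b-/- embryos went with modestly more transcript. Pou5f1, a gene of pluripotent and germ cells, was at 71.3, 839 and 69.03 normalized counts in WT and at 29.1, 32.7 and 94.1 in Dnmt3b-/- embryos, with WT embryo 2 far above the rest. Its log2 fold change was -2.64 (standard error 1.01, adjusted p = 0.0739 by edgeR). What part germ cell number has in the Dppa3 and Dazl levels was not tested.

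Most markers of later germ cells had few counts. Of 8 spermatocyte and spermatid markers, 7 had 3 counts or fewer in every embryo, and Acrv1, Tnp1, Tnp2 and Pgk2 had none. Prm2, a sperm protamine, had its 3 counts in 1 embryo. The one tested, Ldhc, a lactate dehydrogenase of spermatocytes, had a log2 fold change of 0.30 (adjusted p = 0.791 by edgeR), and their summed normalized count was 10.6 to 36.7 in WT and 12.02 to 46.5 in Dnmt3b-/- embryos. Of 7 oocyte markers, 3 were at 3 counts or fewer in every embryo, among them Oosp1 at 0. Zp3, an egg coat protein gene, had 0 to 3 raw counts in WT and 2 to 10 in Dnmt3b-/- embryos. Gdf9, an oocyte growth factor and the only one tested, had a log2 fold change of -0.22 (adjusted p = 0.880), and the sums were 16.1 to 23.9 in WT and 21.01 to 31.7 in Dnmt3b-/- embryos.

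Markers of the embryo itself were abundant in all samples. For 10 markers of E8.5 embryo tissues the sums were 16122 to 19709 in WT and 16810 to 19615 in Dnmt3b-/- embryos. None was called, beside 2.12% higher and 3.78% lower of all tested genes. The most abundant were Myl7, the atrial myosin light chain (log2 fold change -0.72, standard error 0.25, just short of the threshold), and T, the mesoderm factor Brachyury (0.47, adjusted p = 0.122). By the adjusted p alone Shh (log2 fold change 0.83, adjusted p = 0.0118 by edgeR) and Sox1 (0.54, adjusted p = 0.0247) were higher. Nkx2-5 (-0.79, adjusted p = 0.0149) was lower. The shares of all tested genes were 17.6% and 18.1%. The 8 yolk sac endoderm markers had a median log2 fold change of -1.20, and 1 was called lower, beside 3.78% of all tested genes. This was Amn, a subunit of the cubilin receptor, at -2.59 on the log2 scale (standard error 0.84, adjusted p = 0.0429), which was -1.31 (adjusted p = 0.127) without WT embryo 2 and was also lost without WT embryo 1 (adjusted p = 0.0563), Dnmt3b-/- embryo 2 (0.143) or Dnmt3b-/- embryo 3 (0.136). Apoa1 and Ttr, secreted carrier proteins of this tissue, had log2 fold changes of -0.87 (adjusted p = 0.355) and -1.32 (adjusted p = 0.136). Primitive erythroid markers were led by the globin genes Hbb-bh1 (log2 fold change -0.84, adjusted p = 0.229) and Hba-x (0.13, adjusted p = 0.871). They summed to 11906 to 67301 in WT and 15238 to 43383 in Dnmt3b-/- embryos. None was called, beside the same 2.12% and 3.78%. Of 6 trophoblast and decidua markers Prl3d1, Prl2c2, Tpbpa and Prl8a2 were at 0, and the sums of 184 to 386 in WT and 187 to 753 in Dnmt3b-/- embryos came almost wholly from Plac1 rather than Gcm1. A fit left out WT embryo 2, the embryo with the highest yolk sac markers. In it Dazl and Adad1 were called higher, at log2 fold changes of 4.55 (adjusted p = 0.00206) and 2.68 (adjusted p = 0.0127 by edgeR). This fit does not even out the yolk sac markers, which summed to 56955 in WT embryo 1 and to 11319 to 41119 in the Dnmt3b-/- embryos. What part the yolk sac share has in the values of the 7 genes was not tested.

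Among the nearest genes on each side of the 7 loci that had enough counts to be tested, none was called higher and 1 was called lower. Over all tested genes the shares were 2.12% and 3.78%, and the neighbours are too few to be set apart from them. Npy2r, Rbm46os, Nlrp14, Il2 and Kcng4 were not tested. Dazl lies between Rftn1 and Plcl2 and Boll between their relatives Rftn2 and Plcl1. Rftn1, a lipid raft protein gene 88895 bp from Dazl, was lower with a log2 fold change of -0.74 (adjusted p = 0.0102 by edgeR), and Plcl2, 215244 bp away, had 0.29 (adjusted p = 0.0821). Rftn2 and Plcl1 had log2 fold changes of 0.16 (adjusted p = 0.525) and 0.26 (adjusted p = 0.561). Beside Adad1, 4932438A13Rik, 10622 bp away, had -0.11 (adjusted p = 0.374), and the cytokine gene Il2, 9200 bp away, was at 0 in all embryos. Beside Adad2, Taf1c, a subunit of the RNA polymerase I factor SL1 that lies 7503 bp away, was called lower, with 580, 638 and 657 normalized counts in WT and 328, 268 and 203 in Dnmt3b-/- embryos. Its log2 fold change was -1.23 (standard error 0.19, adjusted p = 0.00211), and -0.68 (adjusted p = 0.0146) after removal of the GC and length trends, below the fold threshold. Kcng4 on the other side had 2 counts in all. Npy2r and Rbm46os, which starts 192 bp from Rbm46 on the other strand, were not tested, and Rbm46os was at 0 in all embryos. Of the genes beside Rbmxl2, Nlrp14 was not tested and Syt9 had a log2 fold change of 0.65 (adjusted p = 0.0313). Nova2 and Mypop beside Nanos2 had -0.07 (adjusted p = 0.924) and 0.23 (adjusted p = 0.522). No exon of the 7 genes shared bases with an exon of another annotated gene. The strand setting of the counting is not given in the sources used here.

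The genes most like each tested gene over the 6 embryos were found by the root mean square difference of log2(normalized count + 1) after centring each gene. This is a description, and a shared call or a shared lowest embryo is favoured by the choice itself. Nearest to Dazl were Mageb4, a MAGE family gene (difference 0.55), Pabpc6 (0.58) and Ccdc152 (0.64), where the median gene was at 2.30. Mageb4 had 0 counts in the WT embryos and 46.1, 7.003 and 24.9 normalized counts in the Dnmt3b-/- embryos, at least 9.21-fold higher against a limit of 3 counts in each WT embryo, and was lowest in Dnmt3b-/- embryo 2 as Dazl was. Ccdc152 had 3 raw counts in the WT embryos together and 99.2, 24.5 and 35.1 normalized counts in the Dnmt3b-/- embryos, a ratio of 60.004 (interval 20.1 to 294). Nearest to Adad1 were Xlr4b of the X-linked Xlr family (0.31), EU599041 (0.31) and Dclk3 (0.35), with the median gene at 1.27. All 3 were called higher and were lowest in Dnmt3b-/- embryo 1, which the choice by pattern favours. Dclk3, like Mageb4, Pabpc6 and Ccdc152, passed the count filter only through the Dnmt3b-/- embryos. Without WT embryo 1, WT embryo 3 or Dnmt3b-/- embryo 2 the adjusted p was 0.0644, 0.0530 and 0.0566 for EU599041 and 0.107, 0.0972 and 0.0782 for Dclk3 by edgeR, so these calls were lost. The call of Dclk3 was also lost without Dnmt3b-/- embryo 3, and that of EU599041 after removal of the GC and length trends (adjusted p = 0.0548 by edgeR). Xlr4b was at 182, 361 and 350 normalized counts in the Dnmt3b-/- embryos. The genes nearest to Rbm46 were H60b (0.11), Evi5l (0.16) and Zfp30 (0.17), and those nearest to Adad2 were Dopey1 (0.10), Ppp1r14a (0.11) and Gata2 (0.11). None of these 6 was called, with adjusted p-values from 0.455 to 0.994 by edgeR.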

How the data were processed

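RNA-Seq libraries of 3 WT and 3 Dnmt3b-/- whole E8.5 embryos were made by the authors from total RNA after ribosomal RNA depletion with a stranded kit and read as pairs of 75 bases. Per the labels and methods, the authors aligned the reads to mm10 with TopHat2 2.0.12 and made the deposited raw counts over RefSeq exons with HTSeq 0.6.0. The strand setting and the RefSeq release are not given in the sources used here. The deposited table also holds counts divided by DESeq2 1.4.5 size factors and the log2 fold changes and adjusted p-values of the authors' own comparison, which were not used. Groups follow the labels, and nothing shows that same-numbered embryos were a pair.

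Raw counts (41489332 to 58470286 per embryo) were scaled by TMM and fitted for the 15114 genes with at least 10 counts on average, in edgeR 4.0.16 (R 4.3.3) by the quasi-likelihood test with Benjamini-Hochberg adjustment. All adjusted p-values come from this fit unless another is named. The standard error is the size of the log2 fold change over the square root of F. Exact counting intervals of pooled counts are binomial (Clopper-Pearson, 95%) and cover counting error only. FPKM used the union of RefSeq exons of GRCm38, with a model for 99.1% of the genes. Alternatives were other filters, scalings and pseudocounts, DESeq2 1.42.0, limma 3.58.1, a replicate block, removal of a spline on GC content and length, and each embryo left out. Tables and figures were made with Python 3.11.15, pandas 2.3.3, numpy 2.4.6 and matplotlib 3.10.9.

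The 7 genes and all lists were chosen with earlier results of these data known. Named genes are the 7 genes, Dnmt3b, of each list every called gene (up to 8 by size) and the 2 with the highest mean FPKM, the nearest annotated gene on each side of the 7 genes, and for each tested gene the 3 with the most similar pattern. Genes at 0 counts in a list, Dppa3, Pou5f1, Kit and Rbmx were added after their values were seen. A gene of the list of partners is not reported here and was left out of its counts. The cell type lists cover primordial germ cells, spermatocytes and spermatids, oocytes, E8.5 embryo tissues, yolk sac endoderm, primitive erythroid cells, and trophoblast and decidua. Each library is 1 embryo, and the p-values weigh the difference between genotypes against the spread between embryos.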

Additional observations from a re-analysis of the deposited data

How the results depend on the processing

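Dazl kept its direction and an adjusted p below 0.05 in all 16 alternatives, with adjusted p-values of 3.32e-14 to 0.00907 and the smallest change, 3.82 on the log2 scale, in limma with a pseudocount of 5, which shrinks low genes by construction. Adad1 kept both in 12 of 15 alternatives (adjusted p 0.00247 to 0.0696), and the other 3 each left out an embryo. With at least 50 counts on average only Dazl of the 7 genes was tested, so that 1 gene was called. With an embryo left out, the log2 fold change was 1.91 to 2.68 for Adad1, -0.13 to 0.43 for Rbm46, -0.07 to 0.30 for Adad2 and -1.25 to -0.61 for Dnmt3b, 1 to 2 of the 7 genes were called higher, and 0 to 4 list genes were called lower. Rbm46 changed sign, to -0.05 and -0.03 in limma with pseudocounts of 1 and 5, to -0.02 with a replicate block, to -0.30 with the GC and length trends removed and to -0.40 with both, never with an adjusted p below 0.05, and the cause was not tested. Dnmt3b was at -0.84 (adjusted p = 0.0620) with the trends removed and at -0.74 (adjusted p = 0.0679) with the replicate block as well. Those 2 corrections left 141 and 116 of all genes called lower, and with the adjusted p alone 2654 genes were higher and 2741 lower. Of the list genes 25 were higher and 4 lower by the adjusted p alone. In place of 1 list gene called lower there were 3 without a filter and with the replicate block, 2 with at least 50 counts and with DESeq2, and 0 in both limma fits and with the trends removed. Embryos with the same replicate number did not deviate together (r across genes -0.123, -0.298 and -0.0204), and the replicate block gave 4.37 for Dazl (adjusted p = 0.00416) and 2.20 for Adad1 (adjusted p = 0.0186). It called 265 of all genes higher and 516 lower. Per length of the longest transcript, Boll in WT embryos was at 0.0167 FPKM, and the other levels moved by less than 1 SD. Boll, Rbmxl2 and Nanos2 are limited by depth, since a count of 0 allows 2.38 to 3.501 normalized counts.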
